A study of Mus musculus with 32 samples.

Results

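The data concern cells of the mouse fetal thymus at E15.5, the embryonic day in the labels, that carry ID2 and differ in BCL11b: DN1 cells positive for both proteins (BCL11b+ID2+) and DN1 cells positive for ID2 alone (BCL11b-ID2+). DN1 is the first of the CD4-negative, CD8-negative thymocyte stages. The libraries were taken by the population named in the sample labels, which gave 3 libraries for each gate and so 6 of the 32 bulk RNA-seq libraries of the series. All mice were of the strain 5x polychromILC, whose alleles the labels do not list, so both gates share that background. The E15.5 table also holds 3 BCL11b+ID2- libraries, 3 BCL11b-ID2- libraries and 2 DN2 libraries, and the same ID2-positive gates were sorted at E19.5 (3 BCL11b+ID2+ and 3 BCL11b-ID2+ libraries). The labels do not say that libraries came from separate embryos, litters or pools, so a p-value below measures the spread between libraries and no more, and part of that spread may be technical. Columns of the E15.5 table are headed by a bare number, each tied to a sample through the barcode number in its description, and the gate of each E15.5 library rests on that link.

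BCL11b is a zinc-finger transcription factor needed for progenitors to commit to the T-cell lineage, and it is also used by group 2 innate lymphoid cells (ILC2). ID2 binds E proteins, the factors that drive T- and B-cell genes, and keeps them from DNA; natural killer (NK) cells and innate lymphoid cells (ILC) depend on it. The fetal thymus makes gamma-delta T cells in waves and also holds NK cells, ILC and their precursors, so the question put by these gates is which genes go with BCL11b among cells that already have ID2.

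Values are read counts that the authors normalised with DESeq2 for each stage, and 1 read was worth between 0.560 and 1.64 in the 6 libraries. Reads per library ran from 12030749 to 20308469 in BCL11b+ID2+ cells and from 17301236 to 18144103 in BCL11b-ID2+ cells. Mitochondrial ribosomal RNA took 52.5% to 58.4% of the reads in BCL11b+ID2+ libraries and 63.0% to 74.3% in BCL11b-ID2+ libraries, with no overlap; its part in the results was not tested. Reads were found for 9024, 11131 and 8277 genes in BCL11b+ID2+ libraries and for 9699, 10029 and 12954 in BCL11b-ID2+ libraries. Of the 10289 genes tested, 4531 were at 0 in at least 1 BCL11b+ID2+ library and 3345 in at least 1 BCL11b-ID2+ library. Libraries of 1 gate differed widely from each other. The median gene had an SD of 2.1004 on the log2 scale over the BCL11b+ID2+ libraries and 1.79 over the BCL11b-ID2+ libraries, against 0.566 and 0.493 in the same gates at E19.5. In 1281 of the 10289 genes tested a BCL11b+ID2+ library stood at 0 while another was at 100 or more, and in 904 genes this held for BCL11b-ID2+ libraries; at E19.5 it held for 1 gene in each gate. A list of 10 housekeeping genes summed to between 39871 and 69827 in BCL11b+ID2+ libraries and between 48925 and 59244 in BCL11b-ID2+ libraries. Even so, Gapdh, a glycolytic enzyme that every cell uses, had few reads. It had values of 9.0, 11.2 and 24.5 in BCL11b+ID2+ libraries and 21.6, 12.9 and 95.2 in BCL11b-ID2+ libraries. A value of 0 is therefore given below as no reads found and not as an absent transcript.

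The genes behind the sort were looked at first. Bcl11b had values of 2574, 1432 and 5511 in BCL11b+ID2+ libraries 1, 2 and 3, against 509, 7.03 and 56.1 in BCL11b-ID2+ libraries 1, 2 and 3. The gates did not overlap, but the first BCL11b-ID2+ library held far more Bcl11b than the other two, and the difference did not pass (log2 difference 5.47 ± 1.36 SE, adjusted p = 0.133, limma). Id2 had values of 85.0, 284 and 2771 in BCL11b+ID2+ libraries and 763, 2487 and 1035 in BCL11b-ID2+ libraries. Here the gates overlapped, and the first BCL11b+ID2+ library was below 1 of the ID2-negative libraries, in which Id2 ranged from 0 to 126. The first library of each gate is thus the one in which a sorted gene sits closest to the opposite label. Stage markers, chosen after their values were seen, were uneven as well: Cd44, which DN1 cells carry, had values of 2571, 3752 and 13066 in BCL11b+ID2+ libraries and 2333, 2357 and 3195 in BCL11b-ID2+ libraries, while Il2ra, whose protein CD25 marks the later DN2 stage, had values of 2178, 2931 and 391 in BCL11b+ID2+ libraries and 60.0, 668 and 259.8 in BCL11b-ID2+ libraries.

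Across the table, 8 of 10289 genes passed an adjusted p of 0.05 (limma on log2 of value + 1, Benjamini-Hochberg over all genes tested), which is 0.0778% of them. The 4 genes that rose in BCL11b+ID2+ cells (0.0389%) were Tcrg-C1 and Tcrg-C2, which encode constant parts of the gamma-delta receptor, the cell-surface peptidase gene Dpp4 and the G1 kinase gene Cdk6. The 4 that fell (0.0389%) were the NK receptor gene Ncr1, the CD200 receptor family gene Cd200r4, the mast-cell and progenitor protease gene Cpa3, and Uprt, which is named after an enzyme of pyrimidine salvage. An unadjusted p under 0.05 was reached by 1057 genes (10.3%). On the recovered reads edgeR called 9 genes (0.0875%), and DESeq2 called 204 as higher (1.98%) and 439 as lower (4.27%). Below, passed means passed with limma unless another tool is named. With only the 6 compared libraries in the fit no gene passed and 719 had an unadjusted p under 0.05; the 8 genes then had adjusted p from 0.317 to 0.649 (limma). Without the first library of both gates no gene passed and 910 had an unadjusted p under 0.05; the 8 genes then kept their directions with adjusted p from 0.0984 to 0.187 (limma). The median gene had a log2 difference of -0.44, so values leaned lower in BCL11b+ID2+ cells as a whole, and the differences below are to be read against that; with totals made equal after leaving out mitochondrial genes the median was -0.78. These are bulk samples, so fewer cells of a type and less RNA per cell cannot be told apart in anything that follows.

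**Figure D1:**
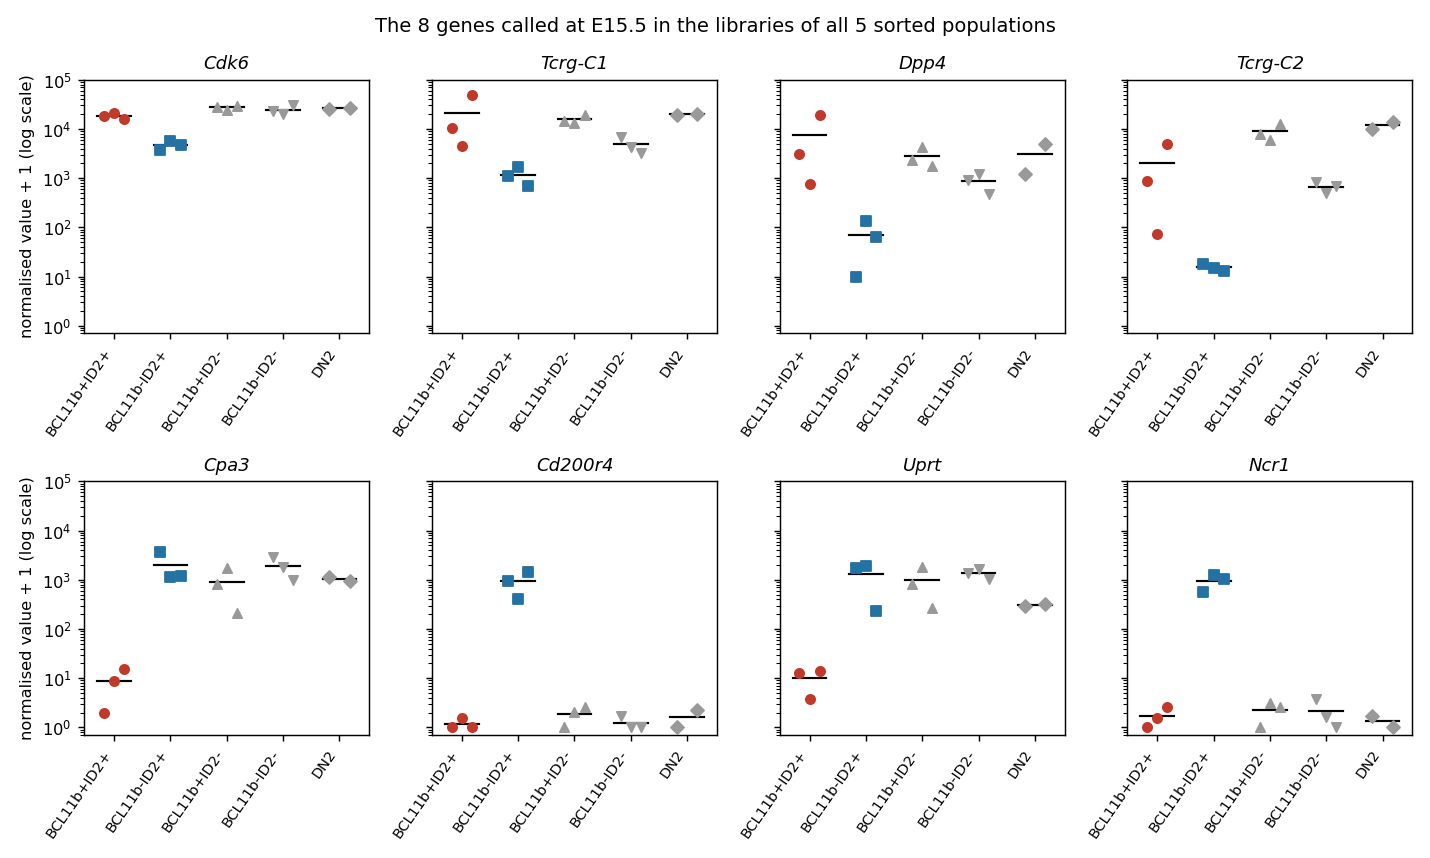
Normalised value + 1 on a log axis for the 8 genes that passed at E15.5, with 1 point for each library and a bar at the mean of each of the 5 sorted populations. In the upper row the BCL11b-ID2+ libraries lie below all other libraries for each of the 4 genes. In the lower row Cpa3 and Uprt are low only in BCL11b+ID2+ libraries, and Cd200r4 and Ncr1 are high only in BCL11b-ID2+ libraries.

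Tcrg-C1 encodes the constant part of a gamma chain of the gamma-delta T-cell receptor (chromosome 13, 19214103 to 19217024, plus strand, GRCm38). It had values of 10281, 4579.8 and 49498 in BCL11b+ID2+ libraries, against 1108, 1668 and 692 in BCL11b-ID2+ libraries. Every BCL11b+ID2+ library was above every BCL11b-ID2+ library, and the third BCL11b+ID2+ library was far above the others. The log2 difference was 3.61 ± 0.58 (SE, adjusted p = 0.00616, limma), an 18.6-fold difference of means. The call was lost without the third BCL11b-ID2+ library (adjusted p = 0.0706) and spanned adjusted p from 6.22e-05 to 0.317 over 18 other settings. The low gate stood alone: Tcrg-C1 was at 14309, 13484 and 19435 in BCL11b+ID2- libraries, 6957, 4284 and 3282 in BCL11b-ID2- libraries, and 18858 and 20522 in DN2 libraries, all above the BCL11b-ID2+ libraries, a position below all 11 others that 0.36% of genes took.

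Tcrg-C2, a second gamma constant gene on the opposite strand of the same locus (chromosome 13, 19304649 to 19307551), had values of 868, 71.6 and 5038.5 in BCL11b+ID2+ libraries, against 16.8, 14.1 and 12 in BCL11b-ID2+ libraries. The gates did not overlap, although the BCL11b+ID2+ libraries spread widely, and the log2 difference was 5.49 ± 1.09 (SE, adjusted p = 0.0402, limma). It passed in 8 of 18 other settings and in 1 of the 6 that leave out 1 library. Its values were 8057, 5918 and 12629 in BCL11b+ID2- libraries and 826, 494 and 677 in BCL11b-ID2- libraries. The transcripts of Tcrg-C1 and Tcrg-C2 match at 96.1% of 906 aligned bases, and 17.9% of the 50-base windows of Tcrg-C1 occur unchanged in Tcrg-C2, so reads could be split between them and the level of each is uncertain. The other 2 constant genes on the list did not pass. Tcrg-C4 had values of 5723, 3322 and 8763 in BCL11b+ID2+ libraries and 1887, 3405 and 2127 in BCL11b-ID2+ libraries, and Trdc, the delta constant gene, had values of 556, 62.7 and 36.0 in BCL11b+ID2+ libraries and 0, 1.17 and 94.0 in BCL11b-ID2+ libraries. Both overlapped between the gates. All 4 constant genes had a positive log2 difference, as did 41.1% of all genes tested.

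Dpp4 encodes CD26, a surface peptidase of T cells that trims chemokines (chromosome 2, 62330073 to 62412231, minus strand). It had values of 3099, 748 and 18927 in BCL11b+ID2+ libraries, against 8.79, 134 and 61.2 in BCL11b-ID2+ libraries. All BCL11b+ID2+ libraries were above all BCL11b-ID2+ libraries, with a log2 difference of 6.34 ± 1.09 (SE, adjusted p = 0.0108, limma). The call was lost without the third BCL11b+ID2+ library (adjusted p = 0.135) or the first BCL11b-ID2+ library (adjusted p = 0.0635), within a range from 1.75e-07 to 0.393 over 18 other settings. Dpp4 was at 2304, 4321 and 1764 in BCL11b+ID2- libraries, at 908, 1239 and 471 in BCL11b-ID2- libraries and at 1194 and 4981 in DN2 libraries, so here too BCL11b-ID2+ cells were the low population. Dpp4 shares bases with a predicted gene on the other strand (Gm13561), and the sources used here do not give the strand setting, so reads of the pair cannot be told apart.

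Cdk6, a kinase that works with D-type cyclins to start the cell cycle (chromosome 5, 3341485 to 3531008, plus strand), had the smallest SE of the 8 genes. They were 18174, 21293 and 15752 in BCL11b+ID2+ libraries, against 3643.5, 5562 and 4740.4 in BCL11b-ID2+ libraries. The gates were far apart relative to their spread, with a log2 difference of 1.996 ± 0.30 (SE, adjusted p = 0.00217, limma), a 3.96-fold difference of means. Cdk6 stayed called in each of the 6 settings that leave out 1 library, but not when totals were made equal without mitochondrial genes (log2 difference 1.54, adjusted p = 0.0619, in a range from 0.000126 to 0.317 over 18 settings). In the other populations Cdk6 lay between 20218 and 30548, so the BCL11b-ID2+ libraries were the low ones. It overlaps 2 predicted genes on the other strand (Gm17590 and Gm42435).

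Ncr1 encodes NKp46, an activating receptor that marks NK cells and ILC1 (chromosome 7, 4337724 to 4345164, plus strand). It had values of 0, 0.560 and 1.64 in BCL11b+ID2+ libraries, against 562, 1233 and 1053 in BCL11b-ID2+ libraries. The BCL11b+ID2+ libraries thus held 2 Ncr1 reads in all while every BCL11b-ID2+ library was high, and no library of the other populations went above 2.84. The log2 difference was -9.14 ± 1.77 (SE, adjusted p = 0.0354, limma), and the ratio of means, BCL11b-ID2+ over BCL11b+ID2+, was 1297 with a 95% counting interval from 359 to 10716. The call did not hold in any of the 6 settings that leave out 1 library, with adjusted p from 0.0635 to 0.142, and the log2 difference stayed between -9.50 and -8.80 in them.

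Cd200r4, an activating member of the CD200 receptor family (chromosome 16, 44811733 to 44839150, plus strand), was likewise found in BCL11b-ID2+ libraries. It had values of 0, 0.560 and 0 in BCL11b+ID2+ libraries, against 964, 404 and 1442 in BCL11b-ID2+ libraries. The BCL11b+ID2+ libraries together held a single read, and all other populations were at 1.58 or lower. The log2 difference was -9.48 ± 1.72 (SE, adjusted p = 0.0203, limma), and the ratio of means, BCL11b-ID2+ over BCL11b+ID2+, was 5022 with a 95% counting interval from 901 to 198400, both intervals covering counting error only. It passed in 1 of the 6 settings that leave out 1 library. Its neighbour Cd200r2 did not pass (adjusted p = 0.0695, limma) at 0, 0.560 and 0 in BCL11b+ID2+ libraries, against 213, 157 and 267 in BCL11b-ID2+ libraries, and was at 2.19 or lower in every other library. Cd200r1, the inhibitory receptor of the family, leaned the other way without passing: it was at 414, 388 and 998 in BCL11b+ID2+ libraries and at 179, 196 and 207 in BCL11b-ID2+ libraries. The Cd200r4 and Cd200r2 transcripts match at 91.8% of 1103 aligned bases and share 3.49% of the 50-base windows of Cd200r4, so a part of their reads is uncertain.

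Cpa3 encodes carboxypeptidase A3, a granule protease of mast cells that early haematopoietic and thymic progenitors also transcribe (chromosome 3, 20215620 to 20242181, minus strand). It had values of 1.0, 7.84 and 14.7 in BCL11b+ID2+ libraries, against 3751, 1124 and 1185 in BCL11b-ID2+ libraries. The BCL11b+ID2+ gate was the low one, since Cpa3 was at 806, 1734 and 212 in BCL11b+ID2- libraries, 2875, 1826 and 990.05 in BCL11b-ID2- libraries, and 1143 and 949 in DN2 libraries. The log2 difference was -8.03 ± 1.176 (SE, adjusted p = 0.00217, limma), a 257-fold difference of means. It stayed called in each of the 6 settings that leave out 1 library, but not with only the 6 compared libraries in the fit (adjusted p = 0.393, limma, in a range from 1.61e-12 to 0.393 over 18 settings). Of the 16 mast-cell genes in the table, 8 had no reads in any BCL11b+ID2+ library and 2 in any BCL11b-ID2+ library. The share of all genes for these counts was not taken. More of all genes tested also stood at 0 in some BCL11b+ID2+ library (4531) than in some BCL11b-ID2+ library (3345). The summed level of the list ran from 1158 to 1665 in BCL11b+ID2+ libraries and from 4399 to 10441 in BCL11b-ID2+ libraries, mostly Cpa3, Srgn and Kit. The defining mast-cell genes were at or near 0 in both gates: Fcer1a, the IgE receptor alpha chain, had no reads in any of the 6 libraries, Ms4a2, its beta chain, had none in 5 and 3.15 in the third BCL11b-ID2+ library, and Mcpt4, a chymase, none in 5 and 6.31 in that same library.

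Uprt, on the X chromosome (104482818 to 104507490, plus strand), had values of 12, 2.80 and 13.1 in BCL11b+ID2+ libraries, against 1751, 1889.5 and 230.2 in BCL11b-ID2+ libraries. BCL11b+ID2+ cells were below all 11 other E15.5 libraries, which ranged from 230.2 to 1889.5. The log2 difference was -6.69 ± 1.26 (SE, adjusted p = 0.0295, limma), and the call was kept in 3 of the 6 settings that leave out 1 library. Beside it, Ddx3y, a Y-linked helicase gene, was at 5.0, 15.1 and 1.64 in BCL11b+ID2+ libraries and at 61.6, 417 and 112 in BCL11b-ID2+ libraries without passing (adjusted p = 0.473, limma), while Xist, which silences an X chromosome in female cells, was at 20208, 13212 and 17244 in BCL11b+ID2+ libraries and at 16263, 27525 and 17594 in BCL11b-ID2+ libraries. Xist and Ddx3y reads both stood in all 6 libraries, and Ddx3y was higher in every BCL11b-ID2+ library; its part in the Uprt result was not tested.

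The promoters of 6 of the 8 genes were found in RefSeq on GRCm38.p6; Tcrg-C1 and Tcrg-C2 were not among them. The 4 shown here, each 300 bases around the annotated start, belong to genes whose difference also passed in the same direction at E19.5. Capitals mark matches on either strand to an E-box (CANNTG, the site of the E proteins that ID2 holds back; 72.3% of 32851 promoters of this length hold 1 or more), a RUNX motif (TGTGGT, 16.8%), a T-box motif (TCACAC, 14.5%) and a GATA motif (AGATAA, 11.2%). Ncr1 (chr7:4337465-4337764, plus strand) held 1 E-box, 2 RUNX matches and 1 T-box match. Cpa3 (chr3:20242132-20242431, minus strand) held 2 E-boxes, 1 RUNX match and 1 GATA match, Cd200r4 (chr16:44820478-44820777, plus strand) 3 E-boxes and 1 GATA match, and Dpp4 (chr2:62412182-62412481, minus strand) 1 E-box and 1 GATA match. No 2 matches overlapped in these 4 windows. The RefSeq start of Cd200r4 lies inside the gene span given above, which is that of GENCODE M21. A match describes letters in the window only, not a site in use.
Dpp4: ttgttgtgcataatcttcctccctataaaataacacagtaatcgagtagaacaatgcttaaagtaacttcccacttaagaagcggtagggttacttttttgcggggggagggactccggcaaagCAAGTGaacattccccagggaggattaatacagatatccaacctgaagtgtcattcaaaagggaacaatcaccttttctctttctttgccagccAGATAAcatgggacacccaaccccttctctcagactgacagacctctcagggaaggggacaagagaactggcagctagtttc
Ncr1: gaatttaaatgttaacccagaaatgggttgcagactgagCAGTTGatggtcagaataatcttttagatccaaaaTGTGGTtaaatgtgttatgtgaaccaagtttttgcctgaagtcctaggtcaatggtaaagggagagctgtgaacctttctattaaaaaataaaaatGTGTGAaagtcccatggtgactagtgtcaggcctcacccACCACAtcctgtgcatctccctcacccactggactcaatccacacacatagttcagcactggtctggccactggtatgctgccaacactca
Cd200r4: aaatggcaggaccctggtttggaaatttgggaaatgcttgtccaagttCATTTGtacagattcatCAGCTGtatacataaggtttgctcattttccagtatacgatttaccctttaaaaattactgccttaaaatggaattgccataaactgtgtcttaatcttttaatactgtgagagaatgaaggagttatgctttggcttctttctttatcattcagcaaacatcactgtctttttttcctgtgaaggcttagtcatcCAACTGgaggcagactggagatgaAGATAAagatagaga
Cpa3: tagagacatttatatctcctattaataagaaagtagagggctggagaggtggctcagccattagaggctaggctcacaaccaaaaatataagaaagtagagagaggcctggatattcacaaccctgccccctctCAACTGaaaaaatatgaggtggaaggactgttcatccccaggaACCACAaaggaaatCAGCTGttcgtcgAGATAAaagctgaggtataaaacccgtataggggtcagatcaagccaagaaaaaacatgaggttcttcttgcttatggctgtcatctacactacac

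Genes of NK cells had lower values in BCL11b+ID2+ libraries. Of 28 NK receptor genes listed, 22 had a row in the table and 15 passed the filter on low values. For 12 of these 15 every BCL11b+ID2+ library was below every BCL11b-ID2+ library, which held for 8.13% of all genes tested, and all 15 had a negative log2 difference (58.8% of all genes). The median of the 15 was -5.51, beside -0.44 over all genes, and 1 passed as lower, Ncr1 (0.0389% of all genes). DESeq2 called 4 as lower (4.27% of all genes) and edgeR none. In this list and those that follow, a gene could pass the filter through the gate where it is high, so the counts describe the members tested and not the whole list. In 12 of the 15 the BCL11b-ID2+ libraries were above all 11 other libraries of the stage, beside 1.13% of all genes.

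Klrb1c, which encodes NK1.1, had values of 1.0, 0 and 0 in BCL11b+ID2+ libraries and 71.1, 1946 and 958 in BCL11b-ID2+ libraries (adjusted p = 0.0566, limma). Cd244a, the receptor 2B4, had values of 0, 6.16 and 1.64 in BCL11b+ID2+ libraries and 1102, 1479 and 838 in BCL11b-ID2+ libraries (adjusted p = 0.0955, limma). Klri2, a lectin-like receptor, was at 2.0, 123 and 13.1 in BCL11b+ID2+ libraries and at 3281, 4415 and 2556 in BCL11b-ID2+ libraries. In none of these did the gates overlap, and none passed with limma, while DESeq2 called all 3 as lower. Klr genes resemble each other, so how their reads were divided is uncertain. The 3 receptor genes that did overlap were Klrk1, Klrb1f and Slamf7, named here after their values were seen, because a BCL11b+ID2+ library was high in each: Klrk1 was at 3.0, 210.4 and 3314 in BCL11b+ID2+ libraries and at 3472, 2838 and 1757 in BCL11b-ID2+ libraries. Overlapping genes touch 2 of those named: Cd244a shares bases with Ly9 and Klrb1c with Gm44511.

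**Figure D2:**
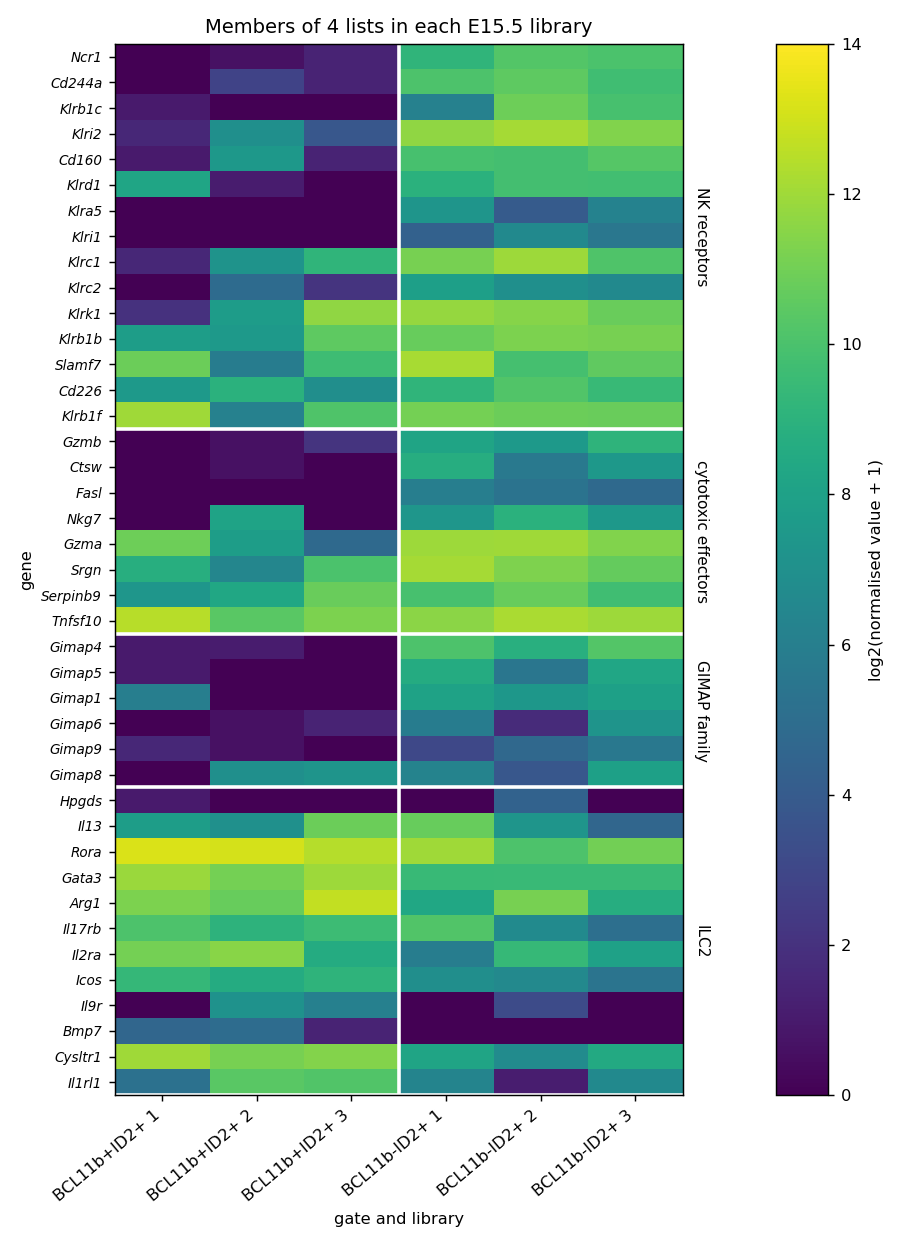
Log2 of normalised value + 1 (colour) in each of the 6 libraries for the tested members of 4 gene lists, with BCL11b+ID2+ libraries on the left and BCL11b-ID2+ libraries on the right. The NK receptor, cytotoxic effector and GIMAP blocks are mostly darker (lower) on the left than on the right, with single bright BCL11b+ID2+ libraries such as Klrk1 in library 3 at 3314; the ILC2 block is brighter on the left for Cysltr1, Icos, Gata3 and Rora.

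None of the effectors, adaptors and secreted products of NK cells passed with limma or edgeR. DESeq2 called 2 effectors, 3 adaptors and 2 cytokine genes as lower, beside 4.27% of all genes. Of 8 cytotoxic effector genes tested, 5 did not overlap with BCL11b+ID2+ lower (8.13% of all genes) and all 8 were negative (58.8%), with a median log2 difference of -4.58. Gzma, a granzyme, was at 1931, 222 and 26.2 in BCL11b+ID2+ libraries and at 4025, 4128 and 2567 in BCL11b-ID2+ libraries. Gzmb was at 0, 0.560 and 3.27 in BCL11b+ID2+ libraries and at 285, 188 and 556 in BCL11b-ID2+ libraries. The 2 granzymes were unlike in the ID2-negative gates: Gzma was at 3544, 4566 and 1891 in BCL11b+ID2- libraries and at 500.2, 916 and 229 in BCL11b-ID2- libraries, the opposite order along BCL11b. Prf1, the pore-forming perforin gene, did not pass the filter, with reads only in the third BCL11b-ID2+ library (114).

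Of 15 cytokine genes with a row, 7 passed the filter, and 4 of these did not overlap with BCL11b+ID2+ lower, beside 8.13% of all genes (median log2 difference -3.31 over the 7). Xcl1, a chemokine that draws dendritic cells, was at 1.0, 0 and 0 in BCL11b+ID2+ libraries and at 1644, 236 and 131 in BCL11b-ID2+ libraries (adjusted p = 0.0566, limma). Ifng, the interferon of NK cells and ILC1, was at 0, 1.12 and 0 in BCL11b+ID2+ libraries and at 618, 17.6 and 368 in BCL11b-ID2+ libraries. Of 6 adaptors tested, 3 did not overlap with BCL11b+ID2+ lower (8.13% of all genes) and none with BCL11b+ID2+ higher (3.97%). The log2 difference was negative in 4 (58.8% of all genes) and positive in 2 (41.1%), with a median of -3.64. The summed level of the adaptor list overlapped, from 2009 to 10234 in BCL11b+ID2+ libraries and from 1552 to 5225 in BCL11b-ID2+ libraries. Tyrobp, or DAP12, which relays signals of activating receptors, was at 0, 0.560 and 0 in BCL11b+ID2+ libraries and at 270.2, 19.9 and 245 in BCL11b-ID2+ libraries. Fcer1g, the adaptor that NKp46 signals through, was at 263, 12.9 and 6.54 in BCL11b+ID2+ libraries and at 495, 2077 and 2240.3 in BCL11b-ID2+ libraries.

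Among receptors for cytokines, Il2rb, the beta chain shared by the IL-2 and IL-15 receptors, was at 225, 498 and 719.8 in BCL11b+ID2+ libraries and at 7469, 4163 and 5868 in BCL11b-ID2+ libraries, and at 16.3 or lower in every other library of the stage. Both ID2-positive gates thus stood above the ID2-negative and DN2 libraries for this gene, with BCL11b+ID2+ libraries lower than BCL11b-ID2+ libraries but no call (adjusted p = 0.446, limma). Il12rb2, of the IL-12 receptor, was at 2.0, 2.24 and 3.27 in BCL11b+ID2+ libraries and at 661, 83.2 and 638 in BCL11b-ID2+ libraries, and between 117 and 1205 elsewhere, so that BCL11b+ID2+ was the low gate (adjusted p = 0.0955, limma). Tnfrsf9, or 4-1BB, a costimulatory receptor, was at 4.0, 8.40 and 9.82 in BCL11b+ID2+ libraries and at 3886, 2176 and 1350.0 in BCL11b-ID2+ libraries. Of the 22 cytokine receptor genes tested, 4 did not overlap, with BCL11b+ID2+ lower in each (8.13% of all genes). DESeq2 called 3 of the 22 as lower (4.27% of all genes), and the list median of -0.24 was near that of all genes.

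The transcription factors of NK cells and ILC1 were mixed. Tbx21, which encodes T-bet, was at 0, 2.80 and 0 in BCL11b+ID2+ libraries and at 21.6, 101 and 87.6 in BCL11b-ID2+ libraries. Eomes, its relative in mature NK cells, did not pass the filter, with a single high library (1.0, 1.12 and 0 in BCL11b+ID2+ libraries and 584, 1.17 and 5.04 in BCL11b-ID2+ libraries). Zeb2, a repressor that NK cells use late in maturation, was at 8.0, 31.3 and 22.9 in BCL11b+ID2+ libraries and at 2305, 1293 and 646 in BCL11b-ID2+ libraries (adjusted p = 0.0896, limma). Ikzf3, or Aiolos, ran the other way at 24131, 26845 and 57545 in BCL11b+ID2+ libraries and 10140, 15218 and 13038 in BCL11b-ID2+ libraries; in all other libraries of the stage it was at 3154 or lower. Of the 11 factors tested, 3 did not overlap with BCL11b+ID2+ lower (8.13% of all genes) and 1 with BCL11b+ID2+ higher (3.97%). None passed with limma or edgeR, and DESeq2 called Zeb2 as lower (adjusted p = 2.81e-05), beside 4.27% of all genes.

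The GIMAP genes, GTPases that keep lymphocytes alive, had low values in BCL11b+ID2+ libraries. All 6 tested had a negative log2 difference (58.8% of all genes; median -5.05) and 5 did not overlap with BCL11b+ID2+ lower (8.13%). None passed with limma or edgeR, and DESeq2 called 4 as lower (4.27% of all genes). Gimap4 was at 1.0, 1.12 and 0 in BCL11b+ID2+ libraries and at 1106, 447 and 1212 in BCL11b-ID2+ libraries (adjusted p = 0.0695, limma). Gimap5 was at 1.0, 0 and 0 in BCL11b+ID2+ libraries and at 387, 44.5 and 308 in BCL11b-ID2+ libraries. The family lies in 1 cluster with related sequences, so the division of its reads is uncertain.

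Genes of ILC2 leaned the other way. Of 20 listed, 16 had a row and 12 passed the filter. Of the 12, 11 had a positive log2 difference (41.1% of all genes) and 5 did not overlap with BCL11b+ID2+ higher (3.97% of all genes). None passed with limma or edgeR, and DESeq2 called 1 as higher, Cysltr1 (1.98% of all genes). The median of the 12 was 2.43, or 1.97 with totals made equal without mitochondrial genes. Gata3, the factor that ILC2 and early T cells share, was at 3742, 2161 and 3941 in BCL11b+ID2+ libraries and at 692, 729 and 720.1 in BCL11b-ID2+ libraries (adjusted p = 0.427, limma). Rora, an ILC2 regulator, was at 9352, 8868 and 5578 in BCL11b+ID2+ libraries and at 4088, 1088 and 2109 in BCL11b-ID2+ libraries; it was at 386 or lower in every other library, so both ID2-positive gates held it. Cysltr1, a receptor for the leukotrienes that stimulate ILC2, was at 4095, 2215 and 2696 in BCL11b+ID2+ libraries and at 285, 105.5 and 364 in BCL11b-ID2+ libraries.

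In Gata3, Rora, Cysltr1 and Icos the BCL11b+ID2+ libraries were above all 11 other libraries of the stage (0.797% of all genes). Icos, a costimulatory receptor, was at 646, 395 and 545 in BCL11b+ID2+ libraries and at 122, 94.9 and 41.0 in BCL11b-ID2+ libraries. Il1rl1, the IL-33 receptor of ILC2, did overlap, at 37.0, 1384 and 1189 in BCL11b+ID2+ libraries and at 78.3, 1.17 and 101 in BCL11b-ID2+ libraries. The first BCL11b+ID2+ library was the low one of its gate. The product genes of ILC2 gave little: Il13 overlapped, at 222, 129 and 1853 in BCL11b+ID2+ libraries and 1714, 155 and 24.0 in BCL11b-ID2+ libraries, and Il4 did not pass the filter.

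**Figure D3:**
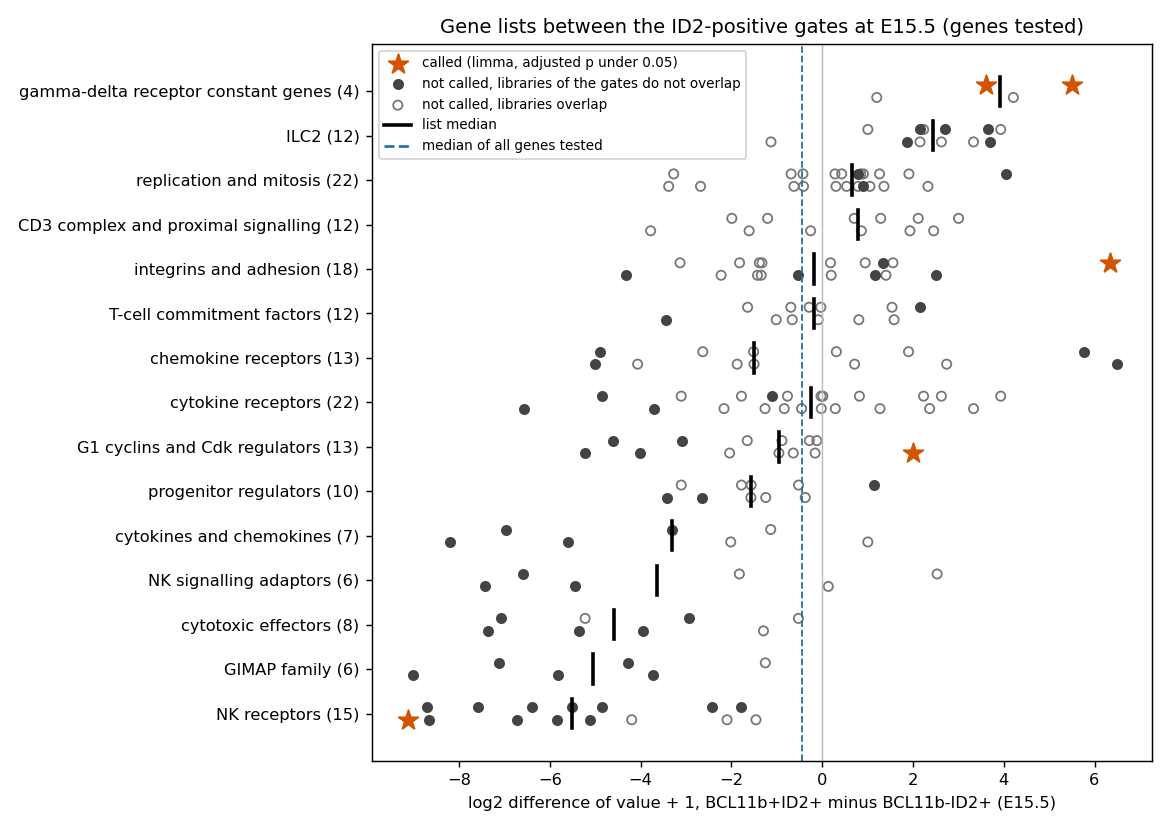
Log2 difference of value + 1, BCL11b+ID2+ minus BCL11b-ID2+, for each tested member of 15 gene lists at E15.5, with the number tested in brackets, filled points where the gates do not overlap, stars for genes that passed and a bar at the list median. The NK receptor, GIMAP and cytotoxic effector medians lie at -5.51, -5.05 and -4.58, the ILC2 and gamma-delta constant medians at 2.43 and 3.91, and the dashed line marks the median of all genes at -0.44.

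Among factors of gamma-delta T cells the gene free of overlap with BCL11b+ID2+ higher was Maf, which directs the IL-17-producing branch. Maf was at 9113, 6770.4 and 15263 in BCL11b+ID2+ libraries and at 364, 1006 and 1111 in BCL11b-ID2+ libraries, with a log2 difference of 3.72 that did not pass with limma (adjusted p = 0.186) and passed with DESeq2 (adjusted p = 0.00444). The BCL11b+ID2+ libraries were above all 11 others of the stage, which reached 1111 at most. None of 12 CD3 complex and signalling genes, 3 alpha-beta receptor genes or 3 recombination genes tested passed or was free of overlap. Over all genes 0.0778% passed, and 3.97% were free of overlap with BCL11b+ID2+ higher and 8.13% with BCL11b+ID2+ lower. With shares this low, the counts say little about these genes. Of 12 T-cell commitment factors, Gata3 was the only gene free of overlap with BCL11b+ID2+ higher (3.97% of all genes). Bach2 was the only one with BCL11b+ID2+ lower (8.13%).

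Homing receptors split by gene. Ccr9, the receptor for the thymic and gut chemokine CCL25, was at 1494, 1193 and 8803 in BCL11b+ID2+ libraries and at 3.20, 124 and 180.3 in BCL11b-ID2+ libraries. Ccr6, a receptor of IL-17-producing and lymphoid tissue inducer cells, was at 287, 212 and 124 in BCL11b+ID2+ libraries and at 0, 0 and 9.46 in BCL11b-ID2+ libraries. Cx3cr1, the fractalkine receptor, was at 56.0, 1.68 and 633 in BCL11b+ID2+ libraries and at 1652, 867 and 1783 in BCL11b-ID2+ libraries. Of 13 chemokine receptor genes tested, 2 did not overlap in each direction (3.97% of all genes higher, 8.13% lower). None passed with limma or edgeR, and DESeq2 called Ccr9 as higher (adjusted p = 0.00429), beside 1.98% of all genes. Among 18 integrin and adhesion genes Dpp4 was the 1 that passed with limma (0.0389% of all genes passed as higher). DESeq2 called 2 of the 18 as higher (1.98% of all genes). Itgb3, the beta-3 integrin chain, was at 10162, 5712 and 3088 in BCL11b+ID2+ libraries and at 946, 1466 and 699.9 in BCL11b-ID2+ libraries, and Itga1, a collagen-binding chain of ILC1 (CD49a), was at 42.0, 9.51 and 1093 in BCL11b+ID2+ libraries and at 1657, 1547 and 1561 in BCL11b-ID2+ libraries. Neither overlapped between the gates and neither passed with limma or edgeR, while Itgb3 passed with DESeq2 (adjusted p = 0.0436).

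Cell-cycle genes gave no common direction with Cdk6. Of 13 G1 cyclin and kinase-regulator genes tested, Cdk6 rose and the other 12 had negative log2 differences, as did 58.8% of all genes. Of these 12, 4 were free of overlap (8.13% of all genes), none passed with limma or edgeR and DESeq2 called 3 as lower (4.27%). Cdk4, its closest relative, was at 3.0, 21.3 and 0 in BCL11b+ID2+ libraries and at 508, 148 and 60.5 in BCL11b-ID2+ libraries, and Ccne2, cyclin E2, at 85.0, 101 and 39.3 in BCL11b+ID2+ libraries and 929.7, 1285 and 185 in BCL11b-ID2+ libraries. Of 22 replication and mitosis genes tested, 15 were positive (41.1% of all genes) and 3 did not overlap with BCL11b+ID2+ higher (3.97%). None passed with limma. With edgeR 1 was called as higher, Aurkb (adjusted p = 0.0245; 0.0875% of all genes called in either direction). Aurkb was at 766, 481 and 28134 in BCL11b+ID2+ libraries and at 119, 124 and 152 in BCL11b-ID2+ libraries, so the third BCL11b+ID2+ library was far above the others. DESeq2 gave Aurkb no adjusted p and called 1 other gene of the list as higher (1.98% of all genes). The median of the 22 was 0.66, or 0.20 with totals made equal without mitochondrial genes. Mki67, the proliferation marker Ki-67, was at 38366, 29318 and 55937 in BCL11b+ID2+ libraries and at 23238, 21574 and 24908 in BCL11b-ID2+ libraries (adjusted p = 0.439, limma), and Lin28b, an RNA-binding protein of fetal lymphoid cells, at 215, 578 and 185 in BCL11b+ID2+ libraries and 1910.5, 2222 and 1331 in BCL11b-ID2+ libraries.

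Marker lists of other cell types the gates could hold were uneven, with higher sums in BCL11b-ID2+ libraries for several and many defining markers at 0. Counts of genes without reads have no share of all genes beside them in this paragraph and describe values only. More of all genes tested stood at 0 in some BCL11b+ID2+ library (4531) than in some BCL11b-ID2+ library (3345). Of 12 macrophage and monocyte genes in the table, 9 had no reads in any BCL11b+ID2+ library and 1 in any BCL11b-ID2+ library. Csf1r, the receptor that defines macrophages, was at 0 in all BCL11b+ID2+ libraries and at 38.4, 1.17 and 25.2 in BCL11b-ID2+ libraries. The summed macrophage list, almost wholly Ccr2, ran from 5999 to 11577 in BCL11b+ID2+ libraries and from 6622 to 10176 in BCL11b-ID2+ libraries. DESeq2 called 3 genes of this list as lower (4.27% of all genes). Of 10 erythroid genes, 7 had no reads in BCL11b+ID2+ libraries and 8 in BCL11b-ID2+ libraries; the defining genes Alas2 and Hba-a1 were at 0 in all 6. The erythroid sum still ran from 1.0 to 9.82 in BCL11b+ID2+ libraries and from 189 to 839 in BCL11b-ID2+ libraries, nearly all from Car2, a carbonic anhydrase. Car2 was at 0, 2.80 and 3.27 in BCL11b+ID2+ libraries and at 839, 163 and 543 in BCL11b-ID2+ libraries, with no overlap; it passed with DESeq2 (adjusted p = 2.58e-05) but not with limma (adjusted p = 0.167). The stroma and endothelium list summed to between 8.18 and 255 in BCL11b+ID2+ libraries and between 778 and 1021 in BCL11b-ID2+ libraries, without a gene that passed with limma, edgeR or DESeq2. The B-lineage sum ran from 4.91 to 951 in BCL11b+ID2+ libraries and from 414 to 3659 in BCL11b-ID2+ libraries. Ighm, the mu heavy chain of B cells, was at 2.0, 951 and 3.27 in BCL11b+ID2+ libraries and at 3659, 294 and 1269 in BCL11b-ID2+ libraries, while Ms4a1, a B-cell surface gene, was at 0 in all 6. The thymic epithelial list summed to between 3.0 and 201 in BCL11b+ID2+ libraries and between 619 and 1353 in BCL11b-ID2+ libraries, mostly Ccl25. Its defining factor Foxn1 had 1 read in BCL11b+ID2+ libraries and none in BCL11b-ID2+ libraries. The part of these cells in the results was not tested.

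Outside the lists, the genes nearest to the threshold included several with few or no reads in 1 gate. Slc38a4, an amino acid transporter, was at 713, 186 and 1354 in BCL11b+ID2+ libraries and at 0, 1.17 and 0 in BCL11b-ID2+ libraries (adjusted p = 0.0896, limma). Stab2, a scavenger receptor for hyaluronan, was at 1382, 1042 and 257 in BCL11b+ID2+ libraries and at 0, 50.4 and 0 in BCL11b-ID2+ libraries. Cnot6l, a deadenylase subunit, was tight, at 10969, 10294 and 14255 in BCL11b+ID2+ libraries and 4192, 2651 and 1949.6 in BCL11b-ID2+ libraries (adjusted p = 0.0955, limma). On the other side, Aoah, which inactivates bacterial lipopolysaccharide, was at 3.0, 1.12 and 0 in BCL11b+ID2+ libraries and at 5836, 223 and 529.7 in BCL11b-ID2+ libraries, and Neurl3, a ubiquitin ligase, at 3.0, 0 and 1.64 in BCL11b+ID2+ libraries and 578, 846 and 829.8 in BCL11b-ID2+ libraries. None of these overlapped between the gates and none passed with limma. All 5 passed with DESeq2, with adjusted p from 7.63e-12 for Aoah to 0.0473 for Stab2, and Aoah passed with edgeR (adjusted p = 0.0302).

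Whether the BCL11b gate among ID2-positive cells differs from the same gate among ID2-negative cells was tested directly. The difference of the 2 differences passed for 0 of 10289 genes with limma (662, or 6.43%, at an unadjusted p under 0.05), for 0 with edgeR's quasi-likelihood test (1102 unadjusted) and for 377 with DESeq2. Among the 8 called genes its adjusted p ran from 0.454 for Cdk6 to 0.927 for Tcrg-C2 (limma), so none of the 8 is shown to be particular to the ID2-positive gates. Tcrg-C1, Tcrg-C2 and Dpp4 were also higher along BCL11b among ID2-negative cells without overlap, in the values given above. The share of all genes free of overlap between the ID2-negative gates was not taken, so overlap there describes values only. Their unadjusted p in this test ran from 0.0055 to 0.252 (limma). For Cdk6, Cd200r4, Cpa3, Ncr1 and Uprt the ID2-negative gates overlapped, with unadjusted p from 0.00021 to 0.00306 (limma).

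The same gates at E19.5, in other libraries and a table normalised on its own, gave 835 of 13840 genes past the threshold (6.03%; 437 higher and 398 lower in BCL11b+ID2+ cells, limma). Of the 8 genes called at E15.5, 6 passed in the same direction at E19.5. Tcrg-C1 averaged 1522 ± 48.4 in BCL11b+ID2+ cells and 109 ± 14.02 in BCL11b-ID2+ cells at E19.5 (SD, n = 3 each), with a log2 difference of 3.80, beside 3.61 at E15.5. Ncr1 averaged 3.31 ± 2.28 in BCL11b+ID2+ cells and 582 ± 125 in BCL11b-ID2+ cells, with -7.18 beside -9.14. Cpa3 averaged 28.5 ± 16.9 in BCL11b+ID2+ cells and 391.99 ± 54.0 in BCL11b-ID2+ cells, with -3.97 beside -8.03. Cdk6 and Uprt did not pass at E19.5: Cdk6 averaged 1054 ± 71.7 in BCL11b+ID2+ cells and 989 ± 148 in BCL11b-ID2+ cells, and Uprt 132 ± 86.8 in BCL11b+ID2+ cells and 176 ± 51.0 in BCL11b-ID2+ cells, with both gates overlapping. Whether these differences changed between the stages was not tested, since each table was normalised separately.

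The later calls were also read back into the E15.5 values. Of 9935 genes tested at both stages, 306 passed as higher at E19.5, and 218 of these (71.2%) had a positive log2 difference at E15.5, beside 40.8% of all 9935. In 57 of the 306 (18.6%) the E15.5 gates did not overlap in that direction, beside 4.0% of all, and 7 were free of overlap in the opposite direction. A further 277 passed as lower at E19.5; 230 (83.0%) were negative at E15.5, beside 59.04% of all, 108 (39.0%) did not overlap in that direction, beside 8.22% of all, and 1 was opposite. The median E15.5 log2 difference was 1.34 for the genes higher at E19.5 and -2.47 for those lower, beside -0.46 for all 9935.

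**Figure D4:**
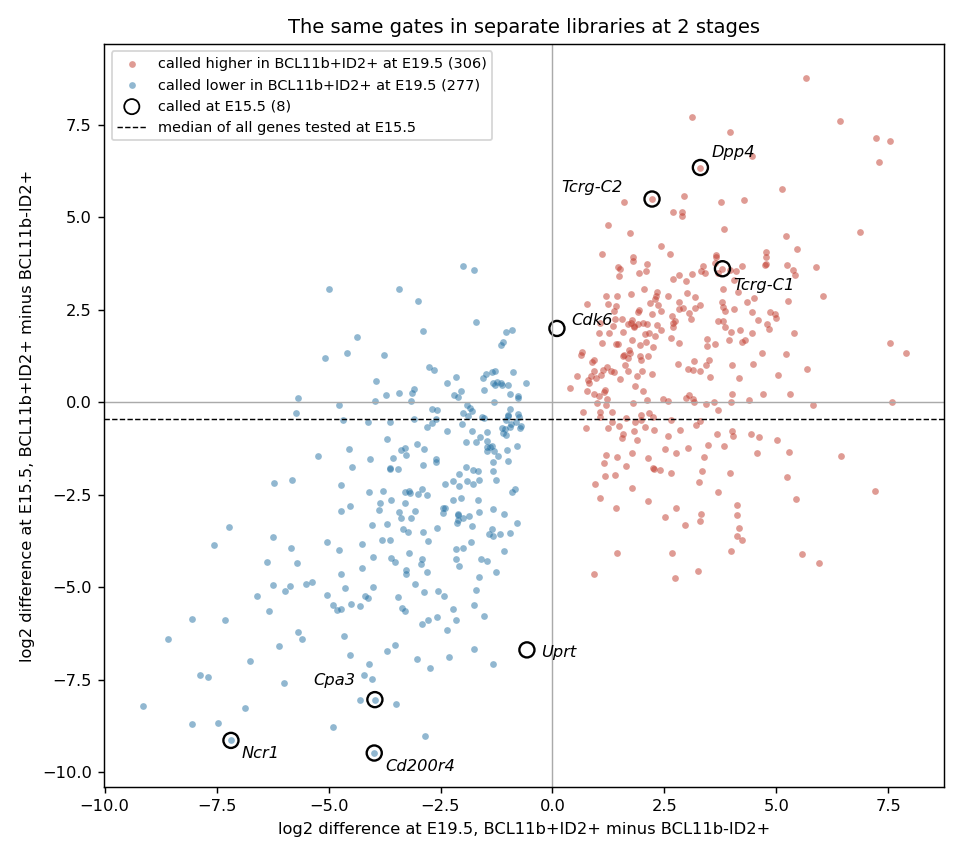
Log2 difference of value + 1, BCL11b+ID2+ minus BCL11b-ID2+, at E19.5 (x axis) and E15.5 (y axis) for genes tested at both stages and called at E19.5, with 306 called higher and 277 called lower a ring around the 8 genes called at E15.5 and a dashed line at the median of all genes tested at E15.5. Of the 306, 218 lie above 0 on the y axis, and of the 277, 230 lie below it; Cdk6 and Uprt lie near 0 on the x axis.

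By list, more genes passed at E19.5. For NK receptors 18 of 21 tested passed as lower in BCL11b+ID2+ cells at E19.5 and 0 as higher (2.88% and 3.16% of all genes), beside 1 of 15 at E15.5. For ILC2 genes 14 of 18 passed as higher at E19.5 and 0 as lower, beside none of 12 at E15.5. Of the genes below the threshold at E15.5, Xcl1, Klrb1c, Cd244a, Ifng and Tyrobp passed as lower at E19.5, and Slc38a4, Stab2, Ccr6, Ccr9, Maf, Gata3 and Itgb3 as higher. Some named genes did not repeat: Zeb2 averaged 119.6 ± 61.9 in BCL11b+ID2+ cells and 60.2 ± 26.6 in BCL11b-ID2+ cells at E19.5, with no call (adjusted p = 0.700, limma), and none of 14 G1 genes passed. Bcl11b at E19.5 averaged 515 ± 95.7 in BCL11b+ID2+ cells and 26.7 ± 10.9 in BCL11b-ID2+ cells, which passed, and Id2 averaged 1119 ± 138 in BCL11b+ID2+ cells and 1438 ± 140.0 in BCL11b-ID2+ cells, which did not.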

How the data were processed

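RNA from sorted cells of the E15.5 and E19.5 thymus was made into bulk libraries with Ovation kits, per the labels. The authors trimmed reads with Trim Galore 0.50, aligned them to GRCm38 with STAR 2.6.0a and normalised them with DESeq2 1.18.1, per the submitters' processing notes; the annotation and the strand setting are not given in the sources used here. The deposited values are a normalised signal per gene, 1 table a stage (E15.5 with 19404 genes, E19.5 with 26244, of which 5 and 6 identifiers had no symbol in GENCODE M21). Dividing each column by its value for 1 read gave whole reads for 100% of values above 0 within 0.01 reads, at both stages.

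Genes with a value of 10 or more in at least 3 libraries of the table were kept (10289 at E15.5, 13840 at E19.5). Log2(value + 1) was fitted with limma 3.58.1 (trend and robust, R 4.3.3) over all 14 E15.5 libraries, or all 18 at E19.5, by population, with Benjamini-Hochberg adjustment and a threshold of 0.05. Fold changes on this scale understate the change of low genes. On the recovered reads, edgeR 4.0.16 (quasi-likelihood, TMM) called 9 genes at E15.5 and DESeq2 1.42.0 called 643. The script was run on simulated data, where recovery of large changes was required only at a low, set spread between libraries. Recovery at the spread of the E15.5 libraries is not given here. Ratios against 1 to 3 reads have exact (Clopper-Pearson) counting intervals.

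Named genes were Bcl11b and Id2, all called genes, up to 12 uncalled genes per direction with the smallest p, no overlap and a mean of 100 or more in the higher gate, and up to 4 such members of each of 43 gene lists; leaving out predicted genes, pseudogenes and mitochondrial and ribosomal protein genes. A further clause of the rule, free of these limits, lets defining markers of other cell types be named where they have few or no reads in both gates. Tcrg-C4, Trdc, Tbx21, Eomes, Prf1, Klrk1, Klrb1f, Slamf7, Il13, Il4, Il1rl1, Cd44, Il2ra, Gapdh, Xist and Ighm were chosen after their values were seen. The members and the lists were chosen with earlier results of these data known. Overlaps of genes come from GENCODE M21, promoters from RefSeq. Other settings tried are given with their effect at the end. No column was left out. Some genes that the naming rule covers are not reported here.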

Additional observations from a re-analysis of the deposited data

Results flagged for a closer look

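In 2 of the genes reported here every library moved one way along BCL11b among ID2-positive cells and the opposite way among ID2-negative cells. The share of all genes that did so was not taken. The values given are the log2 difference between BCL11b+ and BCL11b- gates among ID2-positive cells minus that among ID2-negative cells, and neither passed over all genes (limma). For Gzma it was -6.67 (adjusted p = 0.454), with 1931, 222 and 26.2 in BCL11b+ID2+ libraries, 4025, 4128 and 2567 in BCL11b-ID2+ libraries, 3544, 4566 and 1891 in BCL11b+ID2- libraries, and 500.2, 916 and 229 in BCL11b-ID2- libraries. For Cdh1, the adhesion protein E-cadherin, it was -7.31 (adjusted p = 0.704), with 2.0, 0.560 and 1.64 in BCL11b+ID2+ libraries, 161, 8.20 and 253.5 in BCL11b-ID2+ libraries, 135, 247 and 1258 in BCL11b+ID2- libraries, and 63.9, 40.3 and 120.0 in BCL11b-ID2- libraries.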

How the results depend on the processing

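Of the 8 genes called at E15.5, none reversed under the 18 other settings; Cpa3 was called in 16, Cdk6 in 15, Tcrg-C1 in 15, Dpp4 in 14, Uprt in 10, Cd200r4 in 9, Tcrg-C2 in 8 and Ncr1 in 4. The count of genes called was 19 with a pseudocount of 8, 5 without the filter on low values, 5 with library weights, 643 with DESeq2 (204 higher and 439 lower), and 0 both with only the 6 libraries in the fit (719 at an unadjusted p under 0.05) and without the first library of both gates (910). Leaving out 1 library gave 4 to 8 genes, with 4 without the third BCL11b+ID2+ library, the first or the third BCL11b-ID2+ library and 5 without the second BCL11b-ID2+ library. It was 9 with edgeR (6 higher and 3 lower), 8 with TMM scaling, 7 with differences centred on the median gene (5 higher and 2 lower), 6 with equal totals without mitochondrial genes (2 higher and 4 lower) and 6 with a mean of 50 or more over the 6 libraries. The cause of these shifts was not tested. The test against the ID2-negative gates gave 0 genes, 377 with DESeq2 and 0 to 1 when 1 library was left out, with 1 without the first BCL11b+ID2+ library. At E19.5 all settings stayed within 1.5 times the 835 genes, from 568 to 976.

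Deviations of same-numbered libraries from their gate means had r = 0.0351, -0.00696 and -0.0161 at E15.5. Different-numbered libraries gave -0.0341 to 0.0488 there. At E19.5 same-numbered libraries gave 0.129, 0.0231 and 0.0713, each above the different-numbered ones (-0.0977 to 0.0188). The labels do not say what the numbers stand for, so they were not taken as pairs. With the replicate block 7 genes were called at E15.5 and 0 in the test against the ID2-negative gates. At E19.5 the block gave 948 genes, beside 835 without it.

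Each gate has 3 libraries of 12030749 to 20308469 reads, and their spread limits what can be told at E15.5: many genes stand at 0 in 1 library and high in another. The gates also differ in mitochondrial ribosomal RNA, which cannot be told apart from the gate with these libraries.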
